A study of Mus musculus with 12 samples.

Results

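Podosomes are short-lived adhesion structures of dendritic cells and other myeloid cells, with a core of branched actin filaments and a surrounding ring of adhesion plaque proteins that hold on to integrins. The core is built by the Arp2/3 complex, which starts new filaments from the side of old ones when activated by WASP, and it is taken down by severing and turnover proteins. Dendritic cells are known to dissolve their podosomes when they mature after contact with lipopolysaccharide (LPS), and β2 integrins (CD11a-d paired with CD18) are among the integrins of the podosome ring. The 10 genes described here encode such proteins and were picked by name from the 41709 genes of the tables. Vcl (vinculin), Pxn (paxillin), Zyx (zyxin) and Actn1 (α-actinin-1) belong to the adhesion plaque. Was (WASP), Wipf1 (WIP, the partner that stabilizes WASP), Arpc2 (an Arp2/3 subunit) and Hcls1 (HS1, the hematopoietic relative of cortactin) serve the formation of branched actin, and Gsn (gelsolin) and Coro1a (coronin 1A) serve filament severing and turnover.

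RNA-seq was performed on MHCII+ BMDCs, dendritic cells grown for 10 days from mouse bone marrow in GM-CSF. The 4 groups held 3 libraries each: untreated CD18fl/fl BMDCs, CD18fl/fl BMDCs given 100 ng/mL LPS for 24 h, and CD18CD11c cKO (CD18ΔCD11c) BMDCs without and with the same treatment. All mice carried the floxed CD18 gene (Itgb2). The CD18fl/fl controls were Cre-negative, and in CD18CD11c cKO mice Cre was driven by the promoter of CD11c, a gene of dendritic cells and some macrophages, so that presence of Cre and loss of CD18 cannot be told apart. The labels do not say whether the replicates came from separate mice or cultures, and p-values then measure only the spread between these libraries.

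Libraries held between 29689149 and 34037178 reads on genes. Values are given as CPM, read counts scaled to the depth of the library, after TMM scaling, a correction for library composition. The dendritic cell markers were above 3 reads in at least 11 of 12 genes of the list in every group, with a summed level of 16104 to 45840 CPM. The summed level of 12 macrophage markers was 1345 to 5043 CPM, and that of 10 stromal markers at most 38.6 CPM. Itgb2 itself had 382, 420.2 and 379 CPM in replicates 1, 2 and 3 of untreated CD18fl/fl BMDCs, and 120.5, 163 and 189 CPM in untreated CD18CD11c cKO BMDCs. These groups did not overlap, and the fold difference was 2.40 (log2 −1.26 ± 0.23, SE), with an adjusted p of 0.0887 in edgeR's quasi-likelihood test and of 0.0039 with the replicate number as a block (range over all alternatives, 0.00123 to 0.502). In this RNA of MHCII+ cells isolated in bulk, fewer cells of a type and less RNA per cell cannot be told apart.

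Of the plaque genes, Vcl and Zyx were each the nearest member to the other over the libraries, though other pairs of members were closer. In untreated CD18fl/fl BMDCs, replicate 3 was the highest for Vcl and the lowest for Zyx. Hcls1 was the member whose LPS-treated libraries all lay above the untreated ones in both genotypes. The promoter sequences of Vcl, Zyx and Hcls1 are shown first. They are the 250 bases before the transcription start in RefSeq (GRCm38.p6), read 5′ to 3′ on the strand of the gene. Capitals mark the motif found. In Vcl (chr14:20929148-20929397, plus strand) this is a CArG box, the binding motif of serum response factor, 227 bases before the start. In Zyx (chr6:42349578-42349827, plus strand) and Hcls1 (chr16:36934733-36934982, plus strand) it is TGANTCA, the letters bound by AP-1 factors, 121 and 72 bases before the start.
Vcl: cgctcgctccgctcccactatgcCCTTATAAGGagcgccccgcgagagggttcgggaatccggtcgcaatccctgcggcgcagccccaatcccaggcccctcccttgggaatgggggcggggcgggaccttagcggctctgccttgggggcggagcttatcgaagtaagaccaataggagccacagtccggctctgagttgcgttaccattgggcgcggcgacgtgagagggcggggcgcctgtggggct
Zyx: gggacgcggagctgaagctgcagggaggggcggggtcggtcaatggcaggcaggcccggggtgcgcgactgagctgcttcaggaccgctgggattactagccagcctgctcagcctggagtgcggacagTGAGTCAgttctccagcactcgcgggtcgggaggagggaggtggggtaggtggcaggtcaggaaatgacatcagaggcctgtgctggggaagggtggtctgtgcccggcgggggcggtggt
Hcls1: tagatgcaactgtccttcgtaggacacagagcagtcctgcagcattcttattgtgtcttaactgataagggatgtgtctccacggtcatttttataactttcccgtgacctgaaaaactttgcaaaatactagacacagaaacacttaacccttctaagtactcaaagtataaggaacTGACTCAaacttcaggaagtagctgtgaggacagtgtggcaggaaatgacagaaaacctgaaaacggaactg
In the coordinates of the deposited tables, which match GRCm39, the plaque genes lie at chr14:20979466-21083744 (Vcl), chr5:115644735-115694046 (Pxn), chr6:42326564-42337147 (Zyx) and chr12:80214321-80307145 (Actn1). The branching genes lie at chrX:7947692-7956737 (Was), chr2:73259954-73360078 (Wipf1), chr1:74275243-74307368 (Arpc2) and chr16:36755345-36783574 (Hcls1), and the turnover genes at chr2:35146392-35197904 (Gsn) and chr7:126298945-126306959 (Coro1a). All values are sums over the whole gene. RefSeq entries were found for 9 of the 10 members, with 14 promoters of 300 bases in all (250 before and 50 after the start). A CArG box on either strand was present in 1.63% of all 32851 promoters of the same length, and TGANTCA in 7.81%. GAGGAA, the letters of a motif of the myeloid factor PU.1, occurred in 1 promoter each of Gsn, Wipf1 and Was, and in 28.3% of all promoters. An NF-kB motif was found in none of the 14 promoters, and in 4.51% of all. Pxn is named only.

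Levels of different genes were compared per kb of exon. In untreated CD18fl/fl BMDCs, Coro1a was the highest of the members with 345 ± 95.5 CPM per kb (SD, n = 3), followed by Arpc2 with 249 ± 30.7, Gsn with 114 ± 20.8 and Hcls1 with 62.9 ± 1.97. Zyx, Actn1 and Was lay between 21.3 and 35.8 CPM per kb, Pxn and Wipf1 at 11.8 and 10.4, and Vcl was lowest with 2.54 ± 0.976 CPM per kb. The 4 leading members were thus genes of filament turnover and branching, and the plaque genes all lay below them. The neighbours Coro1a and Arpc2, Zyx and Actn1, Actn1 and Was, and Pxn and Wipf1 overlapped in their libraries. The order of mean levels was the same in untreated CD18CD11c cKO BMDCs, where Coro1a stood at 494 ± 224 CPM per kb.

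After LPS, Arpc2 ranked first in both genotypes, with 239 ± 37.7 CPM per kb in CD18fl/fl and 235 ± 6.17 in CD18CD11c cKO BMDCs. Coro1a followed with 137 ± 44.7 and 169.6 ± 47.3 CPM per kb, and Hcls1 came next with 99.5 ± 16.6 and 74.1 ± 9.15. Gsn moved from the third to the fifth place, with 34.5 ± 4.39 and 27.2 ± 11.9 CPM per kb, and overlapped with Actn1 and Zyx in both genotypes.

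**Figure D1:**
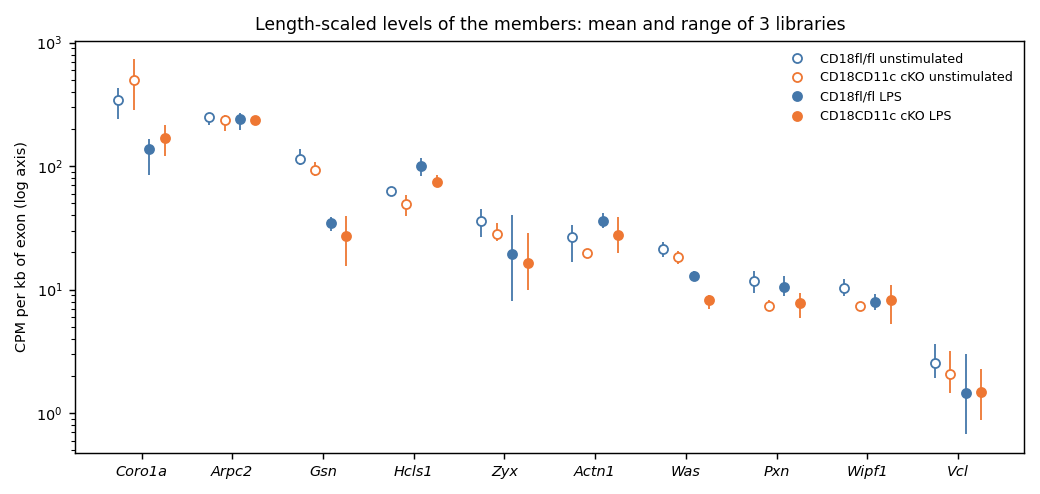
Length-scaled level of each member (CPM per kb of exon, log axis) in the 4 groups, as mean (circle) and range (line) of 3 libraries. Coro1a was highest without LPS and Arpc2 with LPS, while Vcl was lowest throughout, at 1.47 to 2.54 CPM per kb on average.

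The first question was how the members responded to LPS in control BMDCs. Gsn, which severs and caps actin filaments, fell 3.28-fold in CD18fl/fl BMDCs and 3.49-fold in CD18CD11c cKO BMDCs. Was, the activator of the Arp2/3 complex, fell 2.28-fold in CD18CD11c cKO BMDCs. Coro1a, which binds actin filaments and Arp2/3, fell in both genotypes in the fit with the replicate block, by 1.35 and 1.53 on the log2 scale. Arpc2 had a log2 fold change of −0.05 in both genotypes and did not pass.

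Gsn had 302, 299.8 and 407 CPM in replicates 1, 2 and 3 of untreated CD18fl/fl BMDCs, and 103, 88.8 and 115 CPM after LPS. In CD18CD11c cKO BMDCs it had 256, 248 and 321 CPM without, and 45.8, 79.6 and 116 CPM with LPS. All LPS-treated libraries were below all untreated ones in both genotypes. The log2 fold change was −1.71 ± 0.26 (SE) in CD18fl/fl BMDCs, with an edgeR adjusted p of 0.0221 (0.0082 with the block, 6.33e-06 to 0.127 over all alternatives). It was −1.80 ± 0.39 in CD18CD11c cKO BMDCs (0.0491, 0.0041 with the block, 0.000419 to 0.189 over all alternatives). The call was lost when replicate 1 or 2 of either CD18fl/fl group was left out, and in CD18CD11c cKO BMDCs when any library but replicate 3 of the LPS group was left out.

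For Was, the values were 43.6, 39.1 and 33.9 CPM in untreated CD18CD11c cKO BMDCs, and 19.2, 14.8 and 18.8 CPM after LPS. In CD18fl/fl BMDCs they were 45.4, 51.2 and 38.5 CPM, and 25.8, 25.4 and 29.9 CPM after LPS. The LPS-treated libraries lay below the untreated ones in both genotypes. The log2 fold change was −1.19 ± 0.24 in CD18CD11c cKO BMDCs (edgeR adjusted p = 0.045, 0.0099 with the block, range over all alternatives 0.00582 to 0.185). In CD18fl/fl BMDCs it was −0.73 ± 0.22 and did not pass (adjusted p = 0.11, 0.0884 with the block). The CD18CD11c cKO call, like that of Gsn, was lost when any library but replicate 3 of the LPS group was left out.

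Coro1a had 904, 760.0 and 508 CPM in untreated CD18fl/fl BMDCs, and 334, 348 and 179 CPM after LPS. The values in CD18CD11c cKO BMDCs were 1536, 978 and 598 CPM, and 453, 361 and 254 CPM after LPS. Replicate 3 was lowest in all 4 groups, and within each pair of the same number the LPS-treated library was lower. The log2 fold changes were −1.33 ± 0.37 in CD18fl/fl BMDCs (edgeR adjusted p = 0.0925) and −1.59 ± 0.39 in CD18CD11c cKO BMDCs (0.0659). Both passed with the block (0.0151 and 0.0038). The span of Coro1a overlaps that of Bola2 on the other strand (mean of 2379 reads). The strand of the reads was not stated to be used in counting, so reads of such neighbours cannot be told apart.

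Hcls1, which binds Arp2/3 and filaments at branch points, had the opposite direction. Its values were 122, 129 and 129.6 CPM in untreated and 197, 169 and 235 CPM in LPS-treated CD18fl/fl BMDCs. In CD18CD11c cKO BMDCs they were 101, 79.9 and 117 CPM, and 137, 141 and 170.5 CPM after LPS. Every LPS-treated library was above every untreated one, yet the log2 fold changes of 0.67 ± 0.23 and 0.54 ± 0.25 did not pass (edgeR adjusted p = 0.151 and 0.274, and 0.1 and 0.0674 with the block).

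Between untreated and LPS-treated libraries, 4 of the 10 members did not overlap in either genotype, namely Coro1a, Gsn and Was with lower values and Hcls1 with higher values. Of all genes tested, 29.5% did not overlap in CD18fl/fl and 28.1% in CD18CD11c cKO BMDCs. The test called 1 of 10 members in CD18fl/fl BMDCs, where 3.89% of 12744 genes were called, and 2 of 10 in CD18CD11c cKO BMDCs, where 3.99% of 12687 were. With the block these counts were 2 of 10 against 12.8% of all genes and 4 of 10 against 20.2%. The median log2 fold change of the members was −0.56 in CD18fl/fl and −0.28 in CD18CD11c cKO BMDCs, compared with −0.02 and −0.01 over all genes.

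Markers of other cell types moved with LPS as well. In CD18CD11c cKO BMDCs, the summed level of the macrophage markers (12 of 12 above 3 reads in both states) was 2519 to 4412 CPM without and 1345 to 1498 CPM with LPS, without overlap. In CD18fl/fl BMDCs these sums overlapped, at 2101 to 5043 and 2033 to 2311 CPM. The neutrophil sum was 158 to 1719 CPM without and 82.3 to 108 CPM with LPS in CD18fl/fl BMDCs, with 5 and 6 of 12 markers above 3 reads in every library, and 108 to 446 and 62.7 to 113 CPM in CD18CD11c cKO BMDCs, where Cxcr2, Elane, Mpo and Retnlg were at 0 after LPS. The sum of 8 T and NK cell markers was 8.90 to 31.9 and 1.48 to 4.28 CPM in CD18fl/fl BMDCs, and overlapped in CD18CD11c cKO BMDCs (2.66 to 35.1 and 2.04 to 3.97 CPM). The sums of 6 B cell markers overlapped in both genotypes. The part of these cells in the values of Gsn, Was and Coro1a was not tested.

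**Figure D2:**
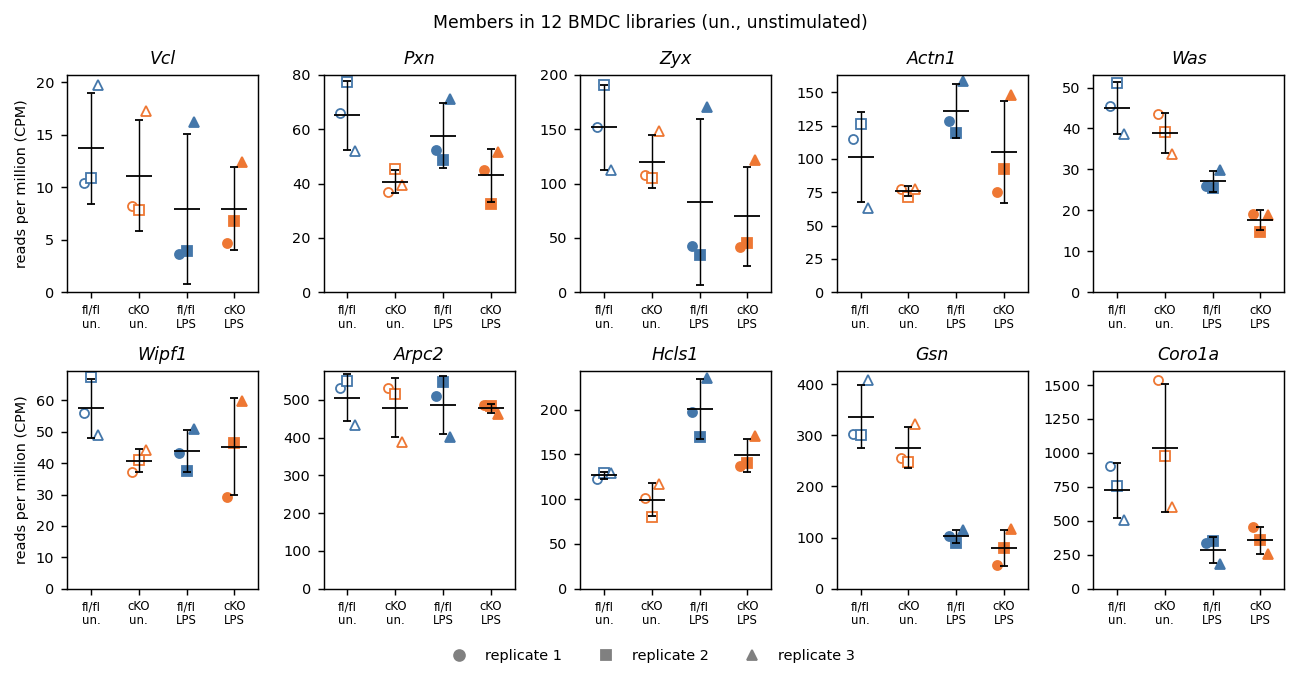
CPM of the 10 members in the 12 libraries (open symbols, untreated; filled symbols, LPS; shape, replicate number; bars, mean ± SD, n = 3). Gsn and Was were lower after LPS in every library of both genotypes, whereas Vcl and Zyx in LPS-treated BMDCs separated replicate 3 from the others.

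Zyx and Vcl were among the members whose replicates differed. In the LPS response of CD18fl/fl BMDCs, replicate 3 of Zyx, Vcl and Actn1 lay over 1 log2 away from the other pairs. The same was true of 32.8% of all genes. Zyx, a plaque protein that recruits actin-assembling factors, had 152, 191 and 112 CPM in untreated CD18fl/fl BMDCs, and 42.7, 34.5 and 171 CPM after LPS. Thus its values after LPS were lower in replicates 1 and 2 and higher in replicate 3. In CD18CD11c cKO BMDCs it had 108, 105 and 148 CPM without and 42.1, 45.2 and 122 CPM with LPS, lower in each pair. The log2 fold change was −0.87 ± 0.63 in CD18fl/fl BMDCs and −0.81 ± 0.47 in CD18CD11c cKO BMDCs (edgeR adjusted p = 0.434 and 0.378). With the block, Zyx passed in CD18CD11c cKO BMDCs (95% interval of the log2 fold change, −1.51 to −0.49, adjusted p = 0.0389) and not in CD18fl/fl BMDCs (0.213).

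Vcl, which links integrin-bound talin to actin, had 10.4, 10.9 and 19.8 CPM in untreated CD18fl/fl BMDCs and 3.66, 3.90 and 16.2 CPM after LPS. For CD18CD11c cKO BMDCs these were 8.26, 7.84 and 17.3 CPM, and 4.74, 6.78 and 12.4 CPM. Replicate 3 was highest in all 4 groups, and each LPS-treated library was below the untreated library of its number. The log2 fold changes of −0.78 ± 0.64 and −0.51 ± 0.50 did not pass (edgeR adjusted p = 0.492 and 0.619). The values rest on 105 to 740 reads per library, and Vcl overlaps Ap3m1, which lies on the other strand with a mean of 1411 reads. Of the Vcl reads, 81.1% to 89.7% mapped uniquely, a smaller share than in any other member.

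Without replicate 3 of the LPS-treated CD18fl/fl group, 5 members passed in CD18fl/fl BMDCs, all lower, where 24.7% of all genes were called. These were Zyx (log2 −1.98, adjusted p = 0.0107), Vcl (−1.85, 0.02), Gsn (−1.81, 0.0084), Coro1a (−1.09, 0.0474) and Was (−0.81, 0.0378), by edgeR with the other 5 libraries. Zyx, Vcl, Coro1a and Was were each called in only 1 of the 6 fits that left out 1 CD18fl/fl library. The library left out here is the one in which Zyx and Vcl differed, so their calls are no separate result. Leaving out the same replicate of the LPS-treated CD18CD11c cKO group gave 3 calls (Gsn, Was and Zyx, the last at −1.55), against 7.8% of all genes. Replicates 1 and 2 alone gave 8 of 10 members called in CD18fl/fl BMDCs, 7 lower (Gsn, Wipf1, Pxn, Zyx, Coro1a, Vcl and Was) and Hcls1 higher, where 47.5% of all genes were called, and 4 of 10 in CD18CD11c cKO BMDCs against 15.9%. In CD18fl/fl BMDCs, the LPS response of replicate 3 was over 1 log2 away from the mean of the other pairs in 3 of 10 members (Zyx, Vcl and Actn1), and in 32.8% of all genes. Replicate 3 also had the highest mast cell and basophil marker sum of each group, between 41.1 and 169 CPM compared with 14.2 to 44.3 CPM in replicates 1 and 2. Its stromal marker sum was the lowest of each group, at 0.752 to 2.62 CPM compared with 1.35 to 38.6 CPM. The B cell marker sum was likewise lowest in replicate 3 of each group, at 2.51 to 5.26 CPM compared with 9.70 to 146 CPM. So was the dendritic cell marker sum, at 16104 to 21781 CPM compared with 25144.5 to 45840 CPM in replicates 1 and 2. In untreated CD18fl/fl BMDCs, replicate 3 also had the lowest sum of 11 LPS response genes (1141 CPM, compared with 4071 and 4274) and of macrophage markers (2101 CPM, compared with 4655 and 5043). The same held in untreated CD18CD11c cKO BMDCs, with 1489 CPM (compared with 3972 and 2988) and 2519 CPM (compared with 2702 and 4412). After LPS, replicate 3 had the highest LPS response sum in both genotypes. It was 16840 CPM in CD18fl/fl (compared with 12399 and 13401) and 19994 CPM in CD18CD11c cKO BMDCs (compared with 12421.5 and 10513). The part of these cells and genes in the values of Zyx and Vcl was not tested.

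**Figure D3:**
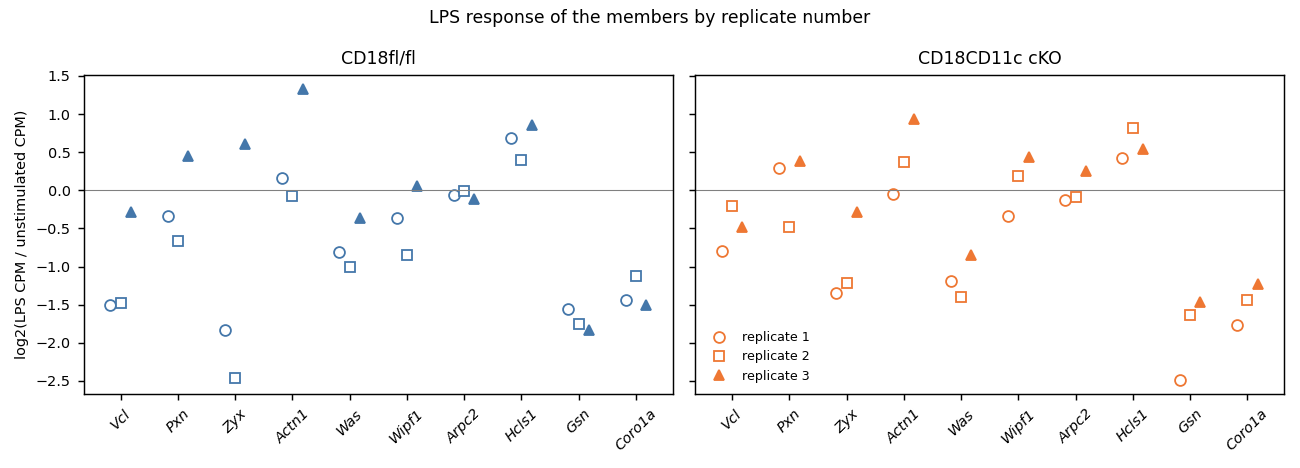
LPS response of each member, as the log2 CPM ratio between the LPS-treated and the untreated library of the same replicate number, in both genotypes. In CD18fl/fl BMDCs, replicate 3 (filled triangle) of Zyx lies at 0.61 and those of replicates 1 and 2 at −1.83 and −2.47, whereas the 3 values of Gsn lie between −1.83 and −1.55.

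The remaining members Actn1, Pxn, Wipf1 and Arpc2 were not called after LPS with all 3 replicates, with or without the block. With replicates 1 and 2 only, Pxn and Wipf1 were among the members called lower in CD18fl/fl BMDCs (log2 −0.50 and −0.61, edgeR adjusted p = 0.025 and 0.0125). Actn1, the actin cross-linker that binds integrin tails, had 115, 126 and 63.1 CPM in untreated CD18fl/fl BMDCs, and 129, 119.7 and 158 CPM after LPS (log2 0.42 ± 0.32). Pxn and Wipf1 had log2 fold changes between −0.38 and 0.11 in both genotypes. Arpc2 ranged from 389 to 550.5 CPM over all 12 libraries, with log2 fold changes of −0.05 ± 0.25 in CD18fl/fl BMDCs and −0.05 ± 0.23 in CD18CD11c cKO BMDCs (95% intervals, −0.54 to 0.44 and −0.50 to 0.40).

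The second question was whether loss of CD18 altered the members. In untreated BMDCs, Pxn, the plaque scaffold that binds kinases and vinculin, was lower in CD18CD11c cKO BMDCs by 1.53-fold in the fit with the replicate block. After LPS, Was was lower by 1.57-fold in the same kind of fit. In the fit without the block no gene passed in either state, neither among the members (0 of 10 in each state) nor among all 12876 and 12441 genes (0.0% each). DESeq2 called 538 and 150 genes and none of the members, and 2159 and 1212 genes had an unadjusted edgeR p under 0.05, among them Pxn in untreated and Was in LPS-treated BMDCs.

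Pxn had 66.1, 77.3 and 51.9 CPM in untreated CD18fl/fl and 37.0, 45.2 and 39.6 CPM in untreated CD18CD11c cKO BMDCs. All CD18CD11c cKO libraries were below the CD18fl/fl libraries, and the log2 fold change was −0.63 ± 0.22 (edgeR adjusted p = 0.237). With the block it was −0.61 ± 0.16 (0.0334, range over all alternatives 0.00915 to 0.654). With a correction for gene length added to the block, it was −0.36 ± 0.15 and did not pass (0.148). After LPS, Pxn had 52.5, 48.8 and 71.1 CPM in CD18fl/fl and 45.1, 32.5 and 51.4 CPM in CD18CD11c cKO BMDCs, and these groups overlapped (−0.44 ± 0.28).

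In untreated BMDCs, Was had overlapping values and a log2 fold change of −0.16 ± 0.20. After LPS, the 14.8 to 19.2 CPM in CD18CD11c cKO BMDCs lay below the 25.4 to 29.9 CPM in CD18fl/fl BMDCs (log2 −0.65 ± 0.23, edgeR adjusted p = 0.449). The block gave −0.65 ± 0.16 and an adjusted p of 0.0459, which was 0.0358 with the gene length correction added (range over all alternatives, 0.0169 to 0.934). The macrophage marker sum of these groups did not overlap either, with 1345 to 1498 CPM in CD18CD11c cKO and 2033 to 2311 CPM in CD18fl/fl BMDCs, and its part in the values of Was was not tested. This comparison and the LPS response of Was share the LPS-treated CD18CD11c cKO libraries.

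Coro1a was the member with higher values in CD18CD11c cKO BMDCs, in every pair of the same number and in both states, a pattern of 24.0% of all genes without and 23.1% with LPS. Without LPS its log2 fold change was 0.57 ± 0.39, and 0.51 ± 0.15 with the block, which did not pass (edgeR adjusted p = 0.505 and 0.0512). After LPS it was 0.28 ± 0.35. Hcls1 and Wipf1 did not overlap between the genotypes without LPS, with log2 fold changes of −0.29 ± 0.20 and −0.44 ± 0.20 (adjusted p = 0.501 and 0.328). After LPS, Hcls1 overlapped slightly, with 137 to 170.5 CPM in CD18CD11c cKO and 169 to 235 CPM in CD18fl/fl BMDCs.

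Without LPS, 3 of 10 members (Hcls1, Pxn and Wipf1) had lower values without overlap in CD18CD11c cKO BMDCs, against 13.1% of all genes, and 6 of 10 were lower in all 3 pairs, against 33.9%. After LPS only Was among the members did not overlap (1 of 10, against 8.09%). The block called 1 of 10 members in each state (lower), where 8.16% and 3.16% of all genes were called lower. Median log2 fold changes of the members were −0.26 and −0.32, compared with −0.05 and −0.11 over all genes. Without LPS, scaling by library size alone in place of TMM moved the median of all genes to −0.44, and with the block it called 7 of 10 members lower, against 30.1% of all genes.

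**Figure D4:**
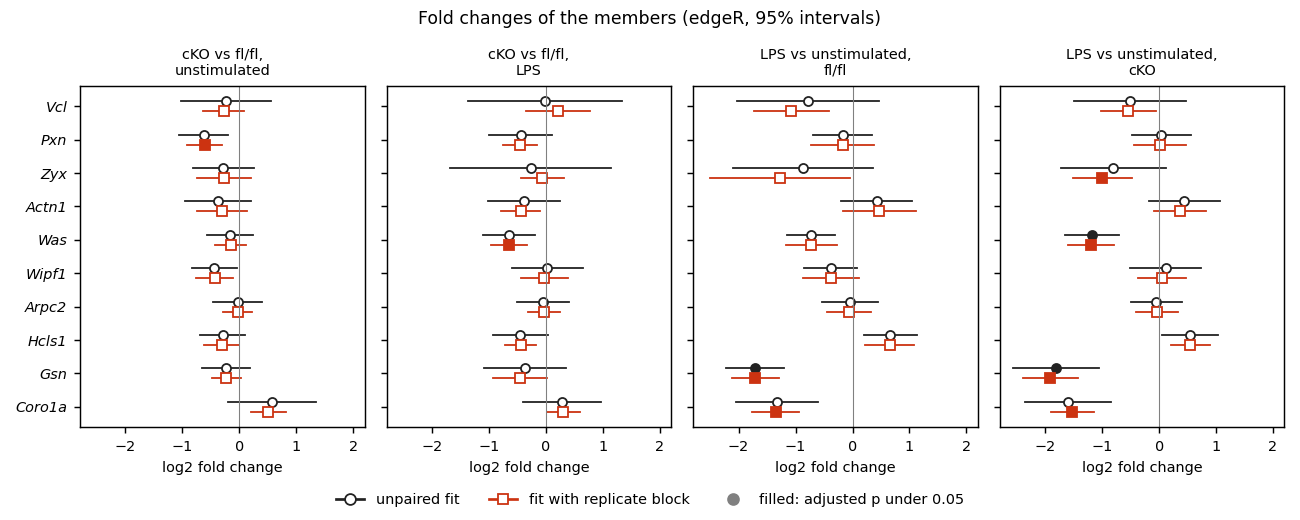
Log2 fold changes of the members in the 4 comparisons by edgeR, without (circles) and with (squares) the replicate block, with 95% intervals. Filled symbols passed the threshold on the adjusted p. In both fits these were Gsn in both LPS responses and Was in the LPS response of CD18CD11c cKO BMDCs. Only with the block, Coro1a passed in both LPS responses and Zyx in that of CD18CD11c cKO BMDCs. Between genotypes, Pxn without LPS and Was with LPS also passed only with the block.

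The LPS responses of the 2 genotypes were then compared with each other. In the interaction test by edgeR on all 12 libraries, 0 of 13752 genes passed (0.0%), with 97 at an unadjusted p under 0.05 and 1 called by DESeq2, and the adjusted p of every member was 1.00. The differences of the responses, CD18CD11c cKO minus CD18fl/fl, were −0.05 ± 0.44 for Gsn, with an interval from −0.91 to 0.80, and −0.41 ± 0.28 for Was, with an interval from −0.96 to 0.14. Those of Coro1a and Wipf1 were −0.21 ± 0.55 and 0.54 ± 0.37.

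The other genes of the actin machinery were counted by lists of the same pathway. Without LPS, the 11 tested Arp2/3 genes had a median log2 fold change of 0.47 between CD18CD11c cKO and CD18fl/fl BMDCs, and none passed without the block. With the block, 5 of 11 were higher and 0 lower, where 12.1% of all genes were called higher. These were Arpc1a, Arpc3, Arpc4, Arpc5 and Arpc5l, and 4 of 11 passed with the gene length correction added. Arpc5 had 715 to 1124 CPM in CD18fl/fl and 1471 to 2292 CPM in CD18CD11c cKO BMDCs (block, log2 1.16 ± 0.15, edgeR adjusted p = 0.0037). Arpc3 differed by 1.01 ± 0.15 (0.0052). Arpc2 was at −0.03 ± 0.13 with an interval from −0.29 to 0.23. Actr2 (−0.04), Arpc1b (0.08), Actr3b (0.21), Actr3 (0.33) and Arpin (0.75) were not called either. With the gene length correction added, Arpc2 was at −0.21, Arpc3 at 0.58 and Arpc5 at 0.95. The part of gene length in these values was not tested.

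**Figure D5:**
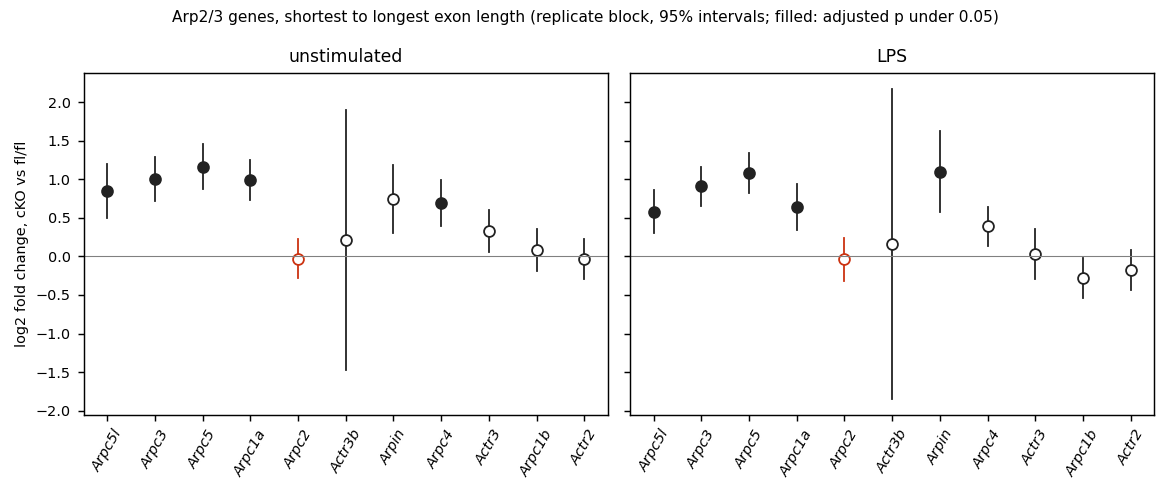
Log2 fold change between CD18CD11c cKO and CD18fl/fl BMDCs of the 11 Arp2/3 genes with the replicate block, without and with LPS, ordered by exon length (95% intervals; filled, adjusted p under 0.05). Arpc2 (red) lies at −0.03 and −0.04, Actr2 at −0.04 and −0.18, Arpc1b at 0.08 and −0.28, and Arpc5 at 1.16 and 1.08.

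After LPS, 5 of the 11 Arp2/3 genes were again higher in CD18CD11c cKO BMDCs with the block (against 6.98% of all genes), namely Arpc1a, Arpc3, Arpc5, Arpc5l and Arpin, the last of which encodes an inhibitor of the complex. With the gene length correction 2 of 11 passed. In the adhesion plaque list, 3 of 32 tested genes were higher and 6 lower without LPS (block), against 12.1% and 8.16% of all genes. Among the lower genes were Svil (supervillin, log2 −1.06), Parvb (β-parvin, −1.30) and Pxn itself, whereas Ptk2 (FAK) was higher (1.08). After LPS, 1 of 33 was higher and 2 were lower, against 6.98% and 3.16% of all genes. Among podosome scaffold and protease genes, 6 of 12 were lower and 0 higher without LPS, such as Gab1 (−1.57) and Mmp14 (−0.96), the membrane-bound collagenase of podosomes, where 8.16% of all genes were called lower. With the gene length correction only Mmp14 passed, and after LPS 0 of 12 passed. Leaving out 1 library in the fit without the block gave ranges of −2.26 to −0.99 for Gab1, −1.33 to −0.40 for Mmp14 and −1.87 to −0.67 for Parvb. With the length correction, the plaque list held 3 higher and 3 lower genes without LPS, and 1 and 1 after it. The shares of all genes given for the Arp2/3, plaque and podosome scaffold lists are those of the block alone.

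The following counts with the block stand against 12.1% of all genes called higher and 8.16% lower without LPS, and 6.98% and 3.16% after LPS. In the WASP and WAVE list, 3 of 23 genes were higher and 4 lower without LPS, and 1 was higher and 3 lower after LPS. Nck1, an adaptor that recruits WASP proteins, was higher in both states (1.29 and 0.88). Of 27 and 26 tested severing and capping genes, 3 were higher and 3 lower without LPS, and 2 higher and 1 lower after LPS. Of 33 and 31 genes for actins, monomer binding and bundling proteins, 6 were higher and 4 lower, and 4 higher and 0 lower, with Tmsb4x (thymosin β4, which holds actin monomers) at 1.37 and 1.34. Targets and partners of serum response factor gave 2 higher and 10 lower of 28, including Fos (−1.71) and Acta2 (−1.80), and 0 and 3 of 25 after LPS. Acta2, which is also in the stromal marker list, was low without LPS. It had 0.231 to 1.43 CPM in CD18CD11c cKO and 1.42 to 4.02 CPM in CD18fl/fl BMDCs. Coronins and formins gave 1 lower each, Coro7 (−0.82) and Diaph2 (−0.67), without LPS and none after it. With the gene length correction added, the counts without LPS were 2 higher and 0 lower in the WASP and WAVE list, 2 and 0 among severing and capping genes, 6 and 1 among actins and their partners, and 1 and 7 among serum response factor genes, and Coro7 (−0.62, adjusted p = 0.0845) and Diaph2 (−0.35, 0.197) no longer passed. After LPS these counts were 2 and 3, 1 and 0, 3 and 0, and 0 and 4. The shares of all genes above belong to the block alone. With the length correction added, fewer of all genes passed in both states (numbers below). Shares by direction are not given for that fit, so its counts cannot be set against them. Leaving out 1 library in the fit without the block gave ranges of −1.09 to −0.21 for Diaph2, −2.04 to −1.14 for Acta2 and −2.18 to −1.34 for Fos in untreated BMDCs.

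The calls of the same lists in the LPS responses, without the block, stand against 3.89% of all genes called in CD18fl/fl and 3.99% in CD18CD11c cKO BMDCs. Parvg (γ-parvin), a plaque gene of hematopoietic cells, fell in both genotypes (log2 −1.80 ± 0.25 and −2.42 ± 0.37, edgeR adjusted p = 0.0187 and 0.0239), as 1 of 33 and with Lpxn (leupaxin, −1.74 ± 0.28) 2 of 31 plaque genes, and none rose. Nck1 rose in both (1.49 ± 0.29 and 1.09 ± 0.22), as the only called gene of 23 WASP and WAVE genes in CD18fl/fl BMDCs, and beside Nck2 (higher) and Was (lower) in CD18CD11c cKO BMDCs. Of 27 severing and capping genes, Gsn and Mical1 (−2.15 ± 0.27) fell in CD18fl/fl BMDCs, and in CD18CD11c cKO BMDCs Gsn fell and Vil1 (villin, 4.16 ± 0.86) rose. In the latter, Vil1 was very low without LPS (0.783, 0.5 and 0.173 CPM) and uneven with it (14.5, 10.7 and 2.14 CPM). Tagln2 rose (edgeR adjusted p = 0.0379) in CD18fl/fl and Flna (filamin A) fell (−1.14 ± 0.24) in CD18CD11c cKO BMDCs. Fos fell in both (−2.49 ± 0.43 and −2.09 ± 0.42). No Arp2/3, coronin or formin gene passed in either genotype without the block.

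Reads in introns were examined as a separate readout, expressed as a share of the gene's reads. They were few, with mean shares of 0.277% to 0.772% for Coro1a and up to 7.60% for Vcl. The intron share of Coro1a was higher in every LPS-treated than in every untreated library, with 0.365%, 0.353% and 0.516% against 0.557%, 0.779% and 0.98% in CD18fl/fl BMDCs. In CD18CD11c cKO BMDCs it was 0.264%, 0.31% and 0.256% against 0.429%, 0.609% and 0.56%. The intron share of the whole library was also higher in each LPS-treated library than in any untreated library of its genotype (medians, 2.09% without and 3.35% with LPS in CD18fl/fl, 1.94% and 3.06% in CD18CD11c cKO BMDCs), and its part in the value of Coro1a was not tested. The share of Coro1a rests on 44 to 119 intron reads per library, and an exact permutation test of 3 against 3 libraries cannot go below p = 0.1. Zyx was also higher without overlap in CD18fl/fl BMDCs (1.47% ± 0.612 and 2.65% ± 0.441), so that 2 of 10 members were, against 6.77% of 7462 genes with at least 100 reads in every library, while with unique reads only Coro1a was. In CD18CD11c cKO BMDCs this was 1 of 10, against 4.89%. Between untreated genotypes, Wipf1 (0.967% ± 0.72 and 3.82% ± 0.452) and Zyx were higher in CD18CD11c cKO BMDCs (2 of 10, against 6.63%) and Coro1a was lower (1 of 10, against 4.5%).

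The gene nearest to each member in its course over the 12 libraries was found from the root mean square (RMS) of the differences between centred log2 CPM. Among 13742 genes these were Asb1 for Vcl (0.18), Scap for Zyx (0.22), Usp19 for Pxn (0.13), Samhd1 for Actn1 (0.18), Sh3bgrl3 for Was (0.15), Gcc2 for Wipf1 (0.15), B230219D22Rik for Arpc2 (0.09), Nsd3 for Hcls1 (0.12), Farsb for Gsn (0.21) and Evi2a for Coro1a (0.21). The median over all genes was 0.71 to 1.18. Each nearest gene was picked as the smallest of all values, so its place below this median was set by the choice. Within the members, Actn1 and Hcls1 (0.30) and Pxn and Wipf1 (0.30) were closest, and Vcl was closest to Zyx (0.45). The SD of log2 CPM over the libraries was 0.17 for Arpc2 and 1.01 for Gsn, the smallest and the largest of the 10.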

How the data were processed

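Poly(A) RNA of 12 BMDC samples was sequenced with 59-base single reads after 15 PCR cycles. The authors mapped the reads in CLC Genomics Workbench and deposited, per library, total, unique and intron read counts per gene (whole numbers) and RPKM values. Gene coordinates match GRCm39, whereas the submitters' processing notes name GRCm 38. Total gene reads were tested with edgeR 4.0.16 (quasi-likelihood F test, TMM scaling, low-count filter at 10, Benjamini-Hochberg adjustment over all genes tested, threshold 0.05) in R 4.3.3, on the 6 libraries of each comparison, and on all 12 for the interaction. DESeq2 1.42.0 was an alternative, as were a replicate block, other scalings, no filter, unique reads, a gene length offset (lowess span 0.3), replicates 1 and 2 alone, all 12 libraries in 1 fit, the deposited RPKM values and each library left out. Intervals, named 95% intervals, are the log2 fold change ± 1.96 times the SE. This factor assumes many libraries, so with the few of each fit the intervals are narrower than a true 95%. The tests were tried on simulated counts first. Intervals, and the floor of 3 reads used for markers, cover counting error or the spread of libraries only, since PCR copies were not marked.

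Deviations from the group means of same-numbered libraries correlated in every pair (r of 0.26 to 0.74), above the level of 0.1 at which the numbers were taken as pairs. Replicates 1 and 2 of different number also correlated (0.18 to 0.37, above the same-numbered replicates 2 in the LPS response of CD18fl/fl BMDCs), and replicate 3 against them did not (−0.63 to −0.34). The check thus mainly sets replicate 3 apart, and the labels do not say what a number marks. Blocked values stand beside a result where they change a call. Named genes were the 10 members, Itgb2, per list and direction the 2 called genes with the largest fold change, and the gene nearest to each member. Arpc1a, Arpc4, Arpc5l, Actr2, Actr3, Actr3b and Arpc1b were named after their values were seen, as were Arpc3 after LPS and Arpin without it. The members and lists were chosen with earlier results of these data known. The result of 1 gene list is not reported here.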

Additional observations from a re-analysis of the deposited data

How the results depend on the processing

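Over the settings other than leaving out a library, 101, 90, 97 and 91 of 110 values per comparison (untreated genotypes, LPS-treated genotypes, LPS in CD18fl/fl, LPS in CD18CD11c cKO) and 92 of 100 of the interaction kept their direction and side of the threshold. The replicate block changed no call of a member other than those given above. Genes past the threshold, in that order of comparisons, were 2606, 1262, 1627 and 2560 with the block, 538, 150, 1794 and 1532 by DESeq2 (1 in the interaction), 4583, 2642, 1621 and 2748 with library size scaling and the block, 1553, 1021, 1727 and 2553 with the gene length offset and the block, 1383, 523, 6140 and 2049 with replicates 1 and 2 only, and 19, 45, 1068 and 983 with all 12 libraries in the fit. Without the low-count filter they were 1 in LPS-treated genotypes and 805 in the LPS response of CD18CD11c cKO BMDCs. With library size scaling the LPS response of CD18fl/fl BMDCs held 143 higher and 304 lower genes, compared with 263 and 233, and that of CD18CD11c cKO BMDCs 186 and 300, compared with 283 and 223. Leaving out 1 library gave 0 to 1 genes in LPS-treated genotypes, 0 to 3268 in the LPS response of CD18fl/fl and 0 to 1033 in that of CD18CD11c cKO BMDCs, and there 0 to 5 and 0 to 3 members.

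Members past the threshold were 1, 1, 2 and 4 of 10 with the block. All genes called lower between genotypes were 8.16% and 3.16%, and those called in the LPS responses 12.8% and 20.2%. With library size scaling and the block the counts were 7 (against 30.1% lower), 4, 2 and 4. They were 1 in LPS-treated genotypes, 2 and 4 in the LPS responses with the gene length offset and the block. Replicates 1 and 2 only gave 8 and 4 in the LPS responses, against 47.5% and 15.9%. Shares of all genes are not given for the other counts here, so those cannot be set against them. In CD18fl/fl BMDCs they were 2 by DESeq2, with library size scaling and with all 12 libraries, and in CD18CD11c cKO BMDCs 1 with the gene length offset. The intron share set apart 1 member in the LPS response of CD18fl/fl BMDCs with unique reads.

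Log2 fold changes near 0 turned sign, and the cause was not tested. Between LPS-treated genotypes Vcl was 0.22 with the block, 0.0282 by DESeq2, 0.0313 with RLE size factors, 0.0039 without the filter, 0.19 with the length offset, 0.38 with that and the block, 0.57 with replicates 1 and 2 and 0.0071 with all 12 libraries. Wipf1 was −0.0271 with the block, −0.23 with library size scaling, −0.28 with that and the block and −0.13 with replicates 1 and 2. Zyx was 0.0754 with the length offset and block and 0.14 with replicates 1 and 2. Untreated, Arpc2 was 0.0115 with replicates 1 and 2. In the LPS response of CD18CD11c cKO BMDCs, library size scaling, that with the block, and replicates 1 and 2 gave −0.15, −0.20 and −0.19 for Pxn and −0.085, −0.17 and −0.15 for Wipf1. In the interaction Gsn was 0.0121 with library size scaling, Actn1 −0.0553 with the length offset and −0.0548 with the block added, Arpc2 −0.0104 by DESeq2 and with RLE and −0.13 with replicates 1 and 2, and Hcls1 0.0151 with library size scaling and block and 0.016 with replicates 1 and 2.

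Leaving out 1 library gave −0.70 to 0.10 for Vcl and −0.14 to 0.12 for Arpc2 between untreated genotypes. Between LPS-treated genotypes it gave −0.52 to 1.05 for Vcl, −0.26 to 0.25 for Wipf1, −0.98 to 0.83 for Zyx and −0.19 to 0.0514 for Arpc2. In the LPS responses it gave −0.15 to 0.0666 for Arpc2 in CD18fl/fl BMDCs, and −0.16 to 0.23 for Pxn, −0.19 to 0.36 for Wipf1 and −0.18 to 0.0139 for Arpc2 in CD18CD11c cKO BMDCs. In the interaction it gave −0.17 to 1.28 for Vcl, −0.42 to 0.23 for Gsn, −0.59 to 1.10 for Zyx, −0.28 to 0.25 for Actn1, −0.18 to 0.15 for Arpc2, −0.57 to 0.19 for Coro1a and −0.21 to 0.0614 for Hcls1.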
